A study of Mus musculus with 46 samples.

Results

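The genes of bile acid synthesis and of the bile acid receptor FXR were followed through liver injury by carbon tetrachloride (CCl4), a solvent that hepatocytes convert into a toxic radical. The 8 genes were Cyp7a1, Cyp8b1, Cyp27a1, Cyp7b1, Slc27a5, Baat, Nr0b2 and Nr1h4. They were taken by name, with earlier results of these data known, from the 18193 genes with a probe set on the Affymetrix Mouse Genome 430 2.0 array. All 8 were among the 13240 genes that passed the filter on low values. Each was read from the probe set naming it alone that had the highest mean over all arrays. The animals were male C57BL/6N mice aged 8 to 10 weeks. The CCl4 groups were given 1.6 g/kg once in olive oil by the intraperitoneal route, and 5 arrays were made of livers collected 2 h and 8 h later and after 1, 2, 4, 6 and 8 days, with 6 arrays after 16 days. The control group was 5 arrays from livers of untreated mice, although the treatment label of these arrays also reads CCL4, with no time. Injection and oil are therefore part of every comparison with the controls, and the sources used here do not give the hour of the day at collection. Nor do they state that the arrays of a group are separate animals: the p-values then describe array-to-array spread alone, part of which may be technical. In whole liver, fewer cells of a type and less RNA per cell cannot be told apart.

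Bile acids are made from cholesterol in hepatocytes by a classic route that starts with Cyp7a1 and an alternative route that starts with Cyp27a1, and both end with coupling of the bile acid to taurine or glycine. Bile acids bind FXR, the nuclear receptor encoded by Nr1h4. FXR raises Nr0b2, whose product SHP holds down Cyp7a1 and Cyp8b1 by acting on the factors LRH-1 (Nr5a2) and HNF4α (Hnf4a) at their promoters.

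In the mouse genome build GRCm38.p6, RefSeq places Cyp7a1 at chr4:6265612-6275632, Cyp8b1 at chr9:121914356-121916305, Cyp27a1 at chr1:74713148-74737897 and Cyp7b1 at chr3:18071944-18243890. Slc27a5 lies at chr7:12988346-12998192, Baat at chr4:49489416-49507915, Nr0b2 at chr4:133553376-133556686 and Nr1h4 at chr10:89454234-89533645. The 250 bases upstream of the start are shown for Cyp8b1 and Nr0b2, from RefSeq and 5′ to 3′ on the strand of the gene, because both hold letters of the site known for LRH-1, one of the regulators measured below. The Cyp8b1 window is chr9:121916306-121916555 on the minus strand, and the Nr0b2 window is chr4:133553126-133553375 on the plus strand. Capitals mark every match, on either strand, to the motifs searched.
Cyp8b1: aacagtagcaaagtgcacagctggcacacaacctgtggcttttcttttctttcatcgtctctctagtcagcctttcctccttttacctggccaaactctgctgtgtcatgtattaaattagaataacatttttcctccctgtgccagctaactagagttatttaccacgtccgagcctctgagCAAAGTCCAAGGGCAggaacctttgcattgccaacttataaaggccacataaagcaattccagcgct
Nr0b2: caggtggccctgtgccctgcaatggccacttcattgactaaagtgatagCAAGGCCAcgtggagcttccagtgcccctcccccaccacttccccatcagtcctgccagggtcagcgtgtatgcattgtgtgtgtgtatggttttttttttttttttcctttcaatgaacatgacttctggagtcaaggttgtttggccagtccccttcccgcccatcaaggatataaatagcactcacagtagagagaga
In Cyp8b1 the capitals join 2 overlapping matches. The HNF4 motif CAAAGTCCA spans -67 to -59 counted from the start, and the LRH-1 motif CAAGGNCA, here CAAGGGCA, spans -60 to -53. In Nr0b2 the LRH-1 motif matches as CAAGGCCA at -201 to -194. Of 32851 promoter windows of this length, 0.384% hold the HNF4 motif and 5.53% the LRH-1 motif. The D-box TTATGNAA, read by clock output factors and present in 3.07% of windows, and the nuclear receptor motif AGGTCA, present in 14% of windows, were searched as well and match in neither. Windows of Cyp27a1 and Nr1h4 were searched too, and both lie inside the gene positions given above. Cyp27a1 holds a D-box match, TTATGAAA, at -60 to -53. Nr1h4 holds AGGTCA on the opposite strand at -214 to -209. No promoter sequence was at hand for Cyp7a1, Cyp7b1, Slc27a5 and Baat. A match describes letters only.

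Arrays of a group resembled each other, with mean correlations across genes from 0.950 to 0.990, and arrays 1 and 2 at 1 d were the least like their group (0.950 and 0.962). The Gapdh 3′ minus 5′ control value, a sign of RNA integrity, averaged 0.136 ± 0.134 at 2 h, 0.169 ± 0.0925 at 1 d and 0.251 ± 0.0677 at 6 d, against 0.347 ± 0.0646 in control arrays (SD, n = 5 each). Its part in the results was not tested beyond a fit with this value as a covariate, which is quoted where it ends or adds a call. Hepatocyte markers were present on every array. The log2 of their summed level over 8 genes lay between 16.40 and 16.65 at 1 d, against 16.68 and 16.76 in controls.

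Cyp7a1, the rate-limiting sterol hydroxylase of the classic route, was lower at each of the first 4 times. On the log2 scale of the deposited values (1 unit is a 2-fold step) it read 7.69, 7.97, 7.74, 8.46 and 8.99 at 2 h and 8.34, 9.31, 7.16, 7.28 and 5.91 at 8 h. At 1 d it read 5.45, 8.07, 5.99, 5.70 and 5.99, and at 2 d 9.18, 8.74, 8.95, 6.18 and 8.11, against 9.29, 9.21, 10.77, 10.49 and 9.23 in controls. Every array at 2 h, 1 d and 2 d and 4 of 5 at 8 h lay below all control arrays, and array 2 at 1 d was far above the rest of its group. The log2 fold changes over control, with standard errors from limma, were -1.63 ± 0.51 at 2 h, -2.19 ± 0.51 at 8 h, -3.56 ± 0.51 at 1 d (11.8-fold lower) and -1.57 ± 0.51 at 2 d. The adjusted p-values were 0.0147, 0.000410, 1.54e-07 and 0.0125. The calls at 2 h and 2 d were weak: leaving out control array 3 (adjusted p = 0.0528 at 2 h) or 2 d array 4 (0.0874) ended them. So did the Gapdh covariate (0.130 and 0.0606) and 6 d arrays in place of controls (0.0871 and 0.061). The second probe set of the gene gave -0.62 at 2 h (adjusted p = 0.186).

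From 4 d on Cyp7a1 passed the test at no time. At 4 d it read 10.78, 10.25, 10.99, 10.59 and 9.76, which overlapped the controls, with a log2 fold change of 0.68 ± 0.51 (adjusted p = 0.511). Its second probe set did pass there, at 1.06 (adjusted p = 0.0448). At 16 d the gene read 9.10, 9.09, 9.09, 7.99, 7.01 and 8.78, and all 6 arrays lay below the lowest control at 9.21. The log2 fold change at 16 d was -1.29 ± 0.48 with a 95% interval from -2.27 to -0.31, and it missed the threshold over all genes (adjusted p = 0.152).

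Cyp8b1, the sterol hydroxylase that steers synthesis towards cholic acid, was lower at 1 d and 2 d. It read 6.88, 9.09, 8.60, 7.11 and 7.50 at 1 d and 10.16, 10.38, 9.69, 6.65 and 6.54 at 2 d, against 10.82, 11.61, 10.80, 11.15 and 10.10 in controls. All arrays at 1 d lay below every control, while at 2 d the group split, with arrays 1 to 3 within or just under the control range and arrays 4 and 5 more than 3 log2 units below it. The log2 fold changes were -3.06 ± 0.47 at 1 d (8.32-fold lower, adjusted p = 6.40e-07) and -2.21 ± 0.47 at 2 d (adjusted p = 0.000221). At 2 h and 8 h they were -0.51 and -0.81 (adjusted p = 0.450 and 0.171), and the 8 h difference passed with only both groups in the fit (0.0222) and with array weights (-0.99, adjusted p = 0.0262). From 4 d to 16 d the group means lay between 10.85 and 11.04, against 10.89 in controls, and the log2 fold changes between -0.04 and 0.14.

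Cyp27a1, the mitochondrial enzyme that opens the alternative route and also works on the side chain in the classic one, fell by 1.05 ± 0.10 at 1 d and by 1.25 ± 0.10 at 2 d (adjusted p = 3.30e-11 and 6.54e-13). It read 9.96, 9.60, 10.21, 10.08 and 10.29 at 1 d and 9.98, 9.89, 9.83, 9.78 and 9.70 at 2 d, against 10.87, 11.24, 11.25, 11.09 and 10.97 in controls. Neither group overlapped the controls. At 4 d its arrays, from 10.60 to 10.86, were again all below the lowest control at 10.87, yet the log2 fold change of -0.30 ± 0.10 missed the threshold (adjusted p = 0.0664). At 8 h 4 of 5 arrays were below all controls, at -0.22 ± 0.10 (adjusted p = 0.0886). Without control array 1 Cyp27a1 passed at 8 h and 4 d (adjusted p = 0.0425 and 0.0344), and without 8 h array 4, which stood above its group, at 8 h (0.0199). Both times also passed with array weights (0.0326 and 0.00445) and with 6 d arrays in place of controls (0.00793 and 0.00513). The 4 d difference passed as well with only both groups in the fit (0.0319) and with the Gapdh covariate (0.0435). A second probe set of Cyp27a1 had a mean of 2.76 over all arrays, near the bottom of the scale, and its log2 fold changes lay between -0.15 and 0.13.

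Cyp7b1, the oxysterol hydroxylase of the alternative route, was lower at 1 d and 2 d and was the one hydroxylase still called lower at 4 d. It read 9.55, 9.52, 10.03, 9.90 and 9.38 at 1 d and 9.54, 9.68, 9.80, 8.75 and 8.13 at 2 d, and then 9.23, 10.72, 10.32, 9.50 and 9.83 at 4 d. Control arrays read 11.41, 11.47, 12.45, 10.41 and 9.96, which is the widest control spread of the 8 genes (SD 0.977). The log2 fold changes were -1.47 ± 0.35 at 1 d, -1.97 ± 0.35 at 2 d and -1.22 ± 0.35 at 4 d, with adjusted p = 0.000500, 1.55e-05 and 0.0209. The call at 4 d was lost without 4 d arrays 1 or 4 or control arrays 2 or 3 (adjusted p from 0.0575 to 0.130). It was also lost with only both groups in the fit (0.0685) and with the Gapdh covariate (0.118). Its second probe set gave -1.34, -1.96 and -1.28 at these times. At 2 h and 8 h Cyp7b1 stayed within the control range, at 0.37 and 0.17.

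**Figure D1:**
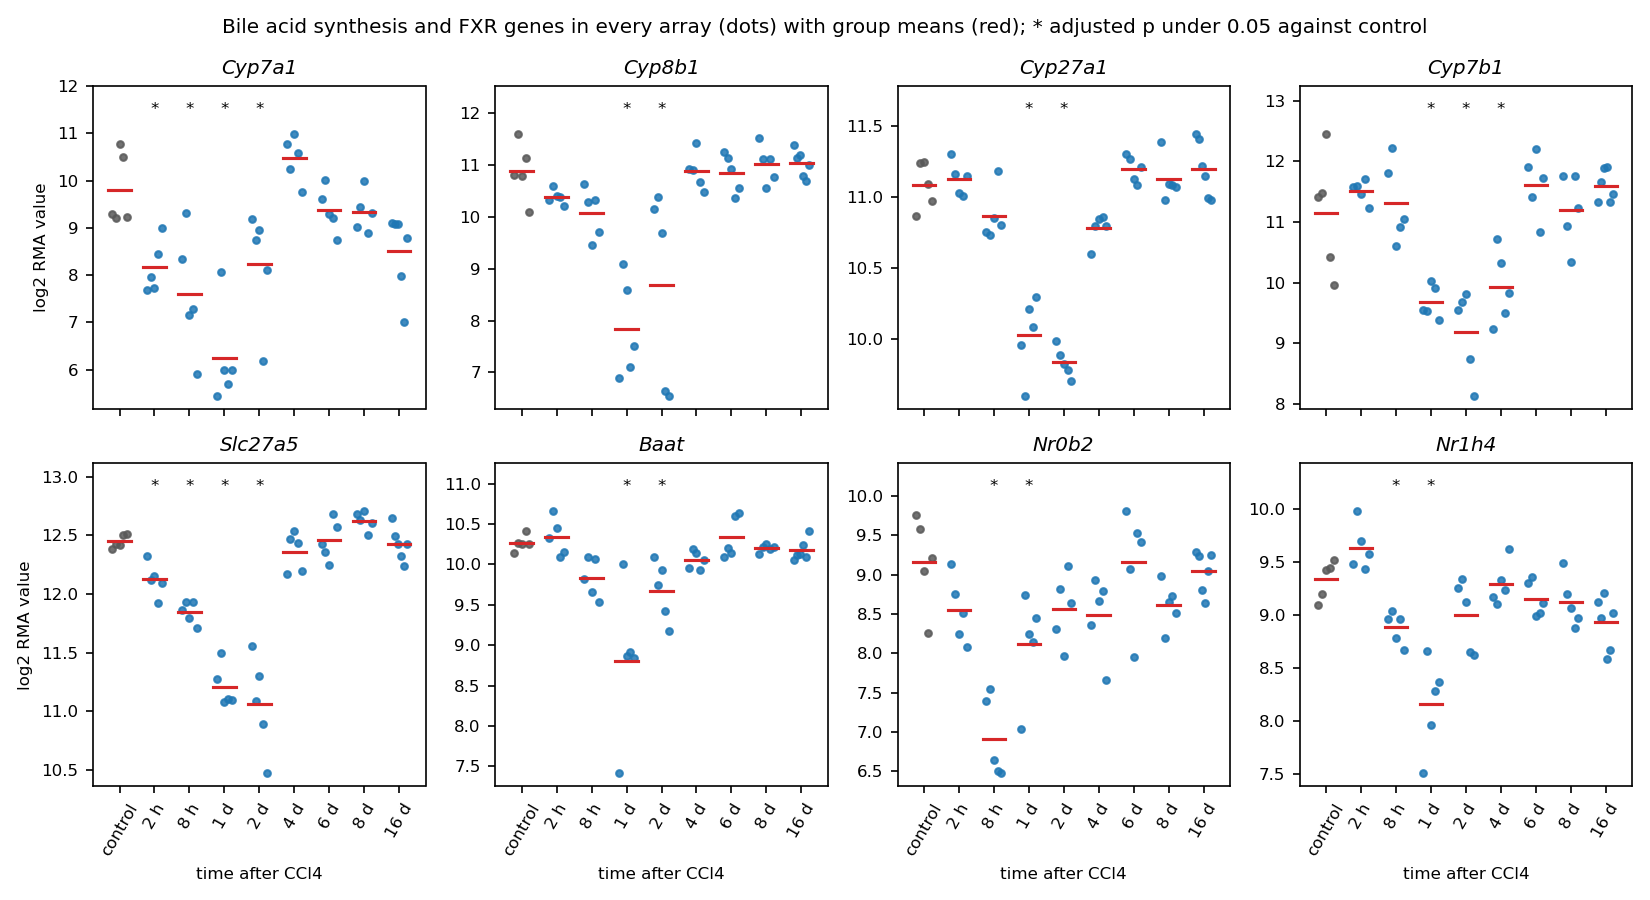
Log2 RMA value (vertical axis) of the 8 genes in every array at each time after CCl4 and in control (horizontal axis); dots are arrays in order of their number, red lines group means, asterisks times with an adjusted p under 0.05 against control. Cyp7a1 is marked from 2 h to 2 d, Cyp8b1 splits into 3 high and 2 low arrays at 2 d, and Nr0b2 is lowest at 8 h.

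Both enzymes of conjugation were lower at 1 d and 2 d as well. Slc27a5, the ligase that joins bile acids to coenzyme A, read 11.27, 11.50, 11.08, 11.11 and 11.09 at 1 d and 11.56, 11.09, 11.30, 10.89 and 10.47 at 2 d, against 12.38, 12.43, 12.42, 12.50 and 12.51 in controls. It fell by 1.24 ± 0.12 at 1 d and by 1.39 ± 0.12 at 2 d (adjusted p = 9.16e-12 and 7.32e-13). Its control arrays lay close together (SD 0.0554), and smaller differences passed as well. At 8 h it fell by 0.60 ± 0.12 (adjusted p = 3.43e-05) and at 2 h by 0.32 ± 0.12 (adjusted p = 0.0335), and no array of either time reached the controls. The 2 h call depended on the scaling, since Slc27a5 was at -0.11 with cyclic loess (adjusted p = 0.461). It was also lost without any one of 2 h arrays 3, 4 and 5 or control arrays 4 and 5 (adjusted p from 0.0511 to 0.109), and with the Gapdh covariate, at almost the same fold change (-0.32, adjusted p = 0.112).

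Baat, the transferase that couples the activated bile acid to taurine or glycine, read 7.42, 10.01, 8.87, 8.92 and 8.84 at 1 d, against 10.14, 10.27, 10.25, 10.41 and 10.25 in controls. All 5 arrays at 1 d lay below the controls, with array 1 far lower and array 2 close to them. Its log2 fold change was -1.46 ± 0.22 at 1 d (adjusted p = 4.19e-07), and the second probe set gave -1.32. At 2 d Baat fell by 0.59 ± 0.22 (adjusted p = 0.0280). The 2 d call was lost without 2 d arrays 4 or 5 or control array 4 (adjusted p from 0.0576 to 0.106), relative to hepatocyte marker genes (0.231) and with the Gapdh covariate (0.166). At 8 h every array was below the controls at a mean of 9.83 ± 0.245, against 10.27 ± 0.0956 in controls (SD, n = 5 each), but the difference missed the threshold (-0.43, adjusted p = 0.111). It passed with only both groups in the fit (0.00431) and with array weights (0.00317).

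Nr0b2, the gene of SHP, had its lowest group mean at 8 h, where that of each other member came at 1 d or 2 d. It read 7.40, 7.55, 6.64, 6.50 and 6.48 at 8 h and 7.03, 8.74, 8.25, 8.14 and 8.45 at 1 d, against 9.75, 9.58, 9.04, 8.25 and 9.21 in controls. The groups did not overlap at 8 h, where the log2 fold change was -2.25 ± 0.30 (4.77-fold lower, adjusted p = 5.04e-08). At 1 d it was -1.04 ± 0.30 (adjusted p = 0.00384), with 3 of 5 arrays below all controls, and the call was lost with the Gapdh covariate (0.0706). At 2 h, 2 d and 4 d Nr0b2 stood at -0.62, -0.60 and -0.68 and missed the threshold (adjusted p = 0.126, 0.110 and 0.193). Without control array 4, the lowest control, it passed at 2 h and 2 d (adjusted p = 0.0403 and 0.0317).

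Nr1h4, the gene of FXR, was lower at 8 h and 1 d. It read 8.96, 9.04, 8.79, 8.96 and 8.67 at 8 h and 7.51, 8.67, 7.97, 8.29 and 8.37 at 1 d, against 9.10, 9.20, 9.42, 9.44 and 9.52 in controls. All 10 of these arrays lay below the controls, and the gene fell by 0.45 ± 0.16 at 8 h and by 1.18 ± 0.16 at 1 d (adjusted p = 0.0181 and 4.03e-08). The 8 h call was lost under several settings, among them cyclic loess (adjusted p = 0.0932), scaling to hepatocyte marker genes (0.315), the Gapdh covariate (0.0570) and leaving out 8 h array 5 (0.0565) or control array 5 (0.0505). At 2 h Nr1h4 read 9.48, 9.98, 9.70, 9.44 and 9.57, of which 3 exceeded every control. The log2 fold change of 0.30 ± 0.16 missed the threshold there (adjusted p = 0.160) but passed after quantile normalization (0.44, adjusted p = 0.0305) and cyclic loess (0.50, adjusted p = 0.0159). At 2 d it was at -0.34 ± 0.16 (adjusted p = 0.0820), and it passed there after quantile normalization (-0.45, adjusted p = 0.0149), with cyclic loess (0.0356) and without 2 d array 2 (0.0361). At 16 d it was at -0.41 ± 0.15 with 4 of 6 arrays below all controls (adjusted p = 0.146).

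**Figure D2:**
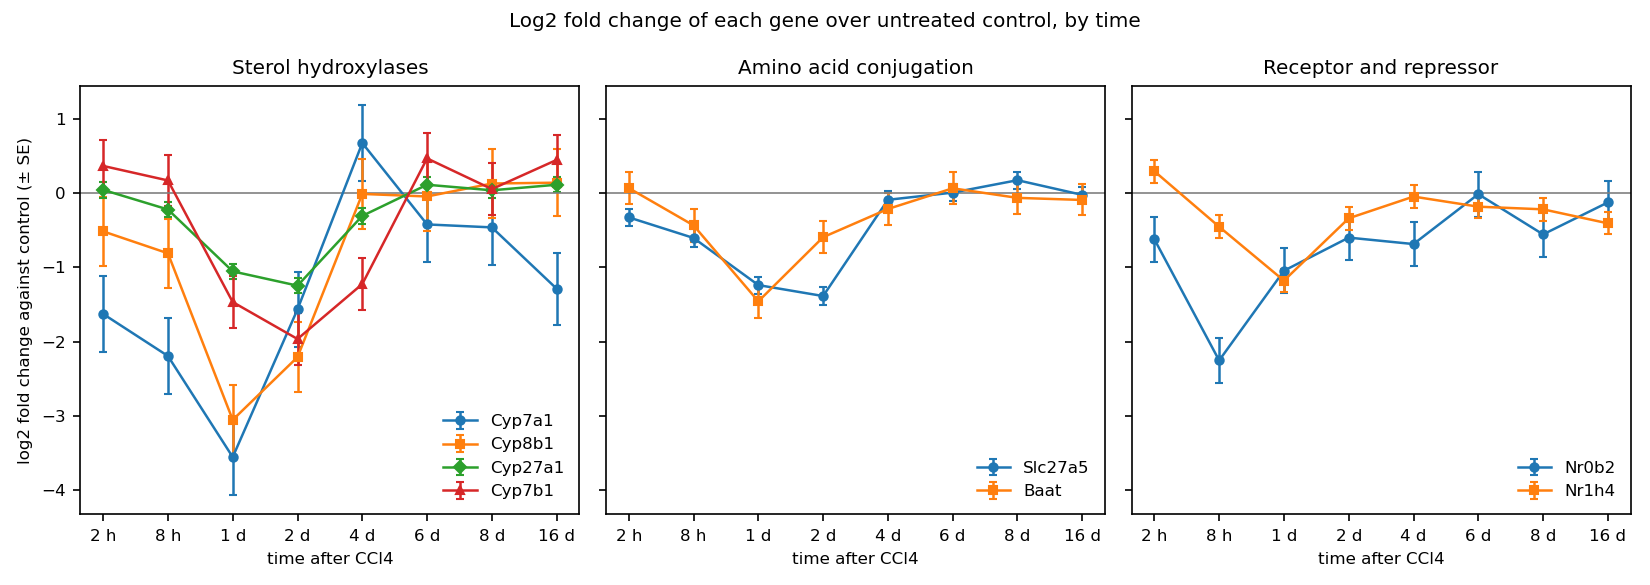
Log2 fold change over control with its standard error (vertical axis) at 8 times after CCl4 (horizontal axis, not to scale), for the hydroxylases, the conjugation enzymes and the receptor with its repressor. Nr0b2 is lowest at 8 h, Cyp7a1, Cyp8b1, Baat and Nr1h4 at 1 d, and Cyp27a1, Cyp7b1 and Slc27a5 at 2 d.

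All 8 times were compared with the same 5 control arrays. At 2 d arrays 4 and 5 were the 2 lowest of their group in every member but Nr0b2. At 8 h arrays 1 and 2 were the 2 highest in Cyp7a1, Cyp7b1, Nr0b2 and Nr1h4 and the 2 lowest in Cyp27a1. Calls of several members at these times therefore rest on the same arrays and are not separate evidence. Against all genes tested, 2 of the 8 were called lower at 2 h, where 19.9% of all genes were, and 4 of 8 at 8 h, where 24.2% were. At 1 d all 8 were called lower, against 25.1% of genes, and at 2 d 6 of 8, against 18.9%. At 4 d Cyp7b1 alone was called lower, against 2.21% of genes. None was called in either direction at 6 d, 8 d or 16 d, where limma called 0.0227%, 0.144% and 1.51% of genes and 914, 1318 and 2406 genes had an unadjusted p under 0.05. The median log2 fold change of the 8 genes was -0.14, -0.53, -1.35, -1.32 and -0.15 over the first 5 times, beside -0.03, -0.04, -0.04, -0.03 and -0.01 over all genes. All 8 passed an F-test over the 8 times, as did 83.4% of genes. The all-gene counts depend on the scaling. At 2 h 849 genes were called higher and 2638 lower, against 1260 and 1702 after quantile normalization and 1296 and 1290 with cyclic loess. At 8 h the counts were 2342 higher and 3207 lower, against 2862 and 2613 with cyclic loess, at 2 d 2799 and 2508, against 2306 and 3113 after quantile normalization, and at 16 d 55 and 145, against 82 and 64. At 4 d 628 were called higher and 292 lower. Relative to hepatocyte marker genes the median of all genes shifted to 0.25 (8 h), 0.41 (1 d), 0.32 (2 d), 0.12 (6 d) and 0.10 (8 d). On that scale 581 genes were called higher and 1117 lower at 2 h, 662 and 68 at 4 d, 14 and 1 at 8 d, against 9 and 10 unscaled, and 14 and 2 at 16 d, where cyclic loess gave 43 and 47. Also on that scale 6250 genes were called higher and 1240 lower at 8 h, 9913 and 752 at 1 d, and 7948 and 323 at 2 d, yet all 8 genes were still called lower at 1 d, as were 5 of 8 at 2 d and 3 at 8 h.

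The steps between neighbouring times show where a change passed the test, and the order in which genes returned was not tested. At 8 h relative to 2 h, Nr0b2, Nr1h4 and Cyp27a1 were called lower (3 of 8, against 15.4% of genes), with Nr0b2 at -1.63 ± 0.30. At 1 d relative to 8 h, 7 of 8 were called lower, against 10.9% of genes. Nr0b2 was the exception, called higher by 1.21 ± 0.30 (adjusted p = 0.00165), as were 20.8% of genes. The step at 2 d relative to 1 d had 3 of 8 called higher, against 17.4% of genes. These were Cyp7a1 at 1.99 ± 0.51, Baat at 0.87 ± 0.22 and Nr1h4 at 0.84 ± 0.16. Cyp8b1 rose by a similar amount with a larger standard error, at 0.85 ± 0.47, and missed the threshold (adjusted p = 0.174). At 4 d relative to 2 d, 4 of 8 were called higher, against 13.4% of genes. These were Cyp7a1 at 2.24 ± 0.51, Cyp8b1 at 2.20 ± 0.47, Slc27a5 at 1.30 ± 0.12 and Cyp27a1 at 0.94 ± 0.10. In these 4 no 4 d array overlapped the 2 d arrays, and the share of all genes without overlap was not counted. At 6 d relative to 4 d, Cyp7b1 at 1.69 ± 0.35 and Cyp27a1 at 0.42 ± 0.10 were called higher (2 of 8, against 3.51% of genes). None was called at 8 d relative to 6 d (0.00755% of genes, 949 at an unadjusted p under 0.05) or at 16 d relative to 8 d (0% of genes, 1405 at an unadjusted p under 0.05). Steps that share a time share its arrays and are not independent.

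Whether members of the pathway changed by different amounts was tested on the difference of log2 values within each array, a measure of unequal change and not of which gene is more abundant,, for 5 pairs at 8 times, with exact two-sided permutation tests adjusted over the 40 comparisons. The smallest exact p was 0.00794 for 5 arrays against 5 and 0.00433 for 6 against 5, and 8 differences passed, all at an adjusted p of 0.0433. SHP and FXR transcripts parted at 8 h. Nr0b2 minus Nr1h4 read -1.57, -1.50, -2.15, -2.47 and -2.20 at 8 h, against 0.65, 0.38, -0.38, -1.19 and -0.32 in controls, so Nr0b2 had fallen by 1.80 more. At 1 d that difference was 0.13 (adjusted p = 0.722).

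The difference between the classic-route enzyme Cyp7a1 and each enzyme of the alternative route passed at 2 of the 8 times. Relative to controls, Cyp7a1 minus Cyp27a1 was lower by 1.67 at 2 h, where Cyp27a1 stood at 0.05, and Cyp7a1 minus Cyp7b1 was lower by 2.37 at 8 h, where Cyp7b1 stood at 0.17. In each, 5 of 5 arrays lay below all controls. At 16 d Cyp7a1 minus Cyp27a1 was lower by 1.40, in 6 of 6 arrays, and Cyp7a1 minus Cyp7b1 was lower by 1.74, in 5 of 6. Other differences of such size missed the threshold of the permutation test. Cyp7a1 minus Cyp27a1 stood at -1.976 at 8 h and -2.505 at 1 d (adjusted p = 0.0907 at both). Cyp7a1 minus Cyp7b1 stood at -1.997 at 2 h, -2.091 at 1 d and 1.902 at 4 d (adjusted p = 0.07055, 0.0907 and 0.08658). Between Cyp7a1 and Cyp8b1 no difference passed, with values from -1.43 at 16 d (adjusted p = 0.0866) to 0.69 at 4 d. Baat minus Slc27a5 was higher by 0.40 at 2 h and by 0.79 at 2 d, and lower by 0.24 at 8 d, in 5 of 5 arrays each. At 2 d it read from -1.47 to -1.30, against -2.26 to -2.09 in controls. The second probe set of Cyp7a1 or Baat was a setting chosen after the data were seen. With it the 7 differences of these genes that had passed kept their sign, and none passed (adjusted p from 0.0529 to 0.0977). Those of Cyp7a1 were smaller, at -0.67 and -0.74 against Cyp27a1 at 2 h and 16 d and at -1.50 and -1.07 against Cyp7b1 at 8 h and 16 d. Baat minus Slc27a5 was at 0.49 at 2 h and 0.72 at 2 d, still at the smallest exact p of 0.00794, and at -0.35 at 8 d.

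**Figure D3:**
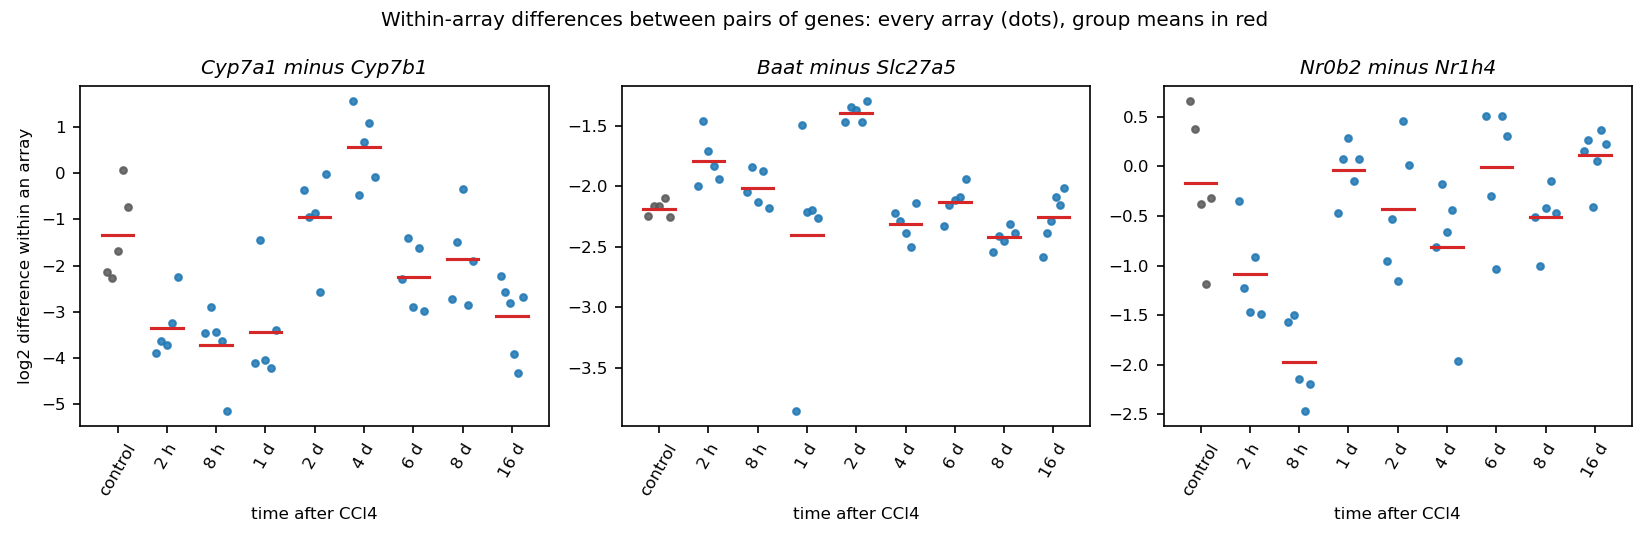
Difference of log2 values within each array (vertical axis) for 3 pairs of genes, by time after CCl4 and in control (horizontal axis); dots are arrays and red lines group means. Nr0b2 minus Nr1h4 is below all controls at 8 h and back among them at 1 d, and Baat minus Slc27a5 is above all controls at 2 h and 2 d.

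Arrays of the same group also varied together. With each group centred on its mean, 6 of 28 pairs of genes were related over the 46 arrays by both Pearson's r and Spearman's rho, with permutations within groups adjusted over the 28 pairs. The share among pairs of all genes was not measured, so 6 of 28 cannot be called particular to these genes. Cyp7a1 and Cyp8b1 had r = 0.568 and rho = 0.546 (adjusted p = 0.00943 and 0.0108), and r = 0.416 without the 2 arrays farthest from the median. Baat and Nr1h4 had r = 0.635 and rho = 0.440 (adjusted p = 0.00943 and 0.0346), and 0.421 without the 2 farthest. The other 4 pairs were Cyp8b1 with Nr1h4 (r = 0.572), Cyp7a1 with Nr1h4 (0.537), Cyp8b1 with Cyp7b1 (0.508) and Slc27a5 with Baat (0.472). No pair with Nr0b2 passed. Its r with Cyp7a1 was 0.0941 and its rho 0.0246 (permutation p = 0.574 and 0.885, adjusted p = 0.670 and 0.885). Without the 1 d and 2 d arrays, a choice made after the data were seen, 36 arrays were left, and r was 0.387 for Cyp7a1 and Cyp8b1, 0.224 for Baat and Nr1h4, 0.316 for Cyp8b1 and Nr1h4, 0.381 for Cyp7a1 and Nr1h4, 0.501 for Cyp8b1 and Cyp7b1 and 0.518 for Slc27a5 and Baat.

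Further enzymes of the pathway fell over the same days. Of 15 listed, 14 were tested (Ch25h did not pass the filter), and 1, 9, 11 and 8 were called lower at 2 h, 8 h, 1 d and 2 d, with 1 called higher at each of 1 d and 2 d and none called from 4 d on. Their median log2 fold changes were -0.13, -0.45, -0.85 and -0.36 at these times. Of all genes, 19.9%, 24.2%, 25.1% and 18.9% were called lower there, so that 1 of 14 at 2 h is below the share of all genes. Akr1d1, the reductase of the steroid ring, fell by 2.17 ± 0.40 at 8 h and by 3.01 ± 0.40 at 1 d. Its arrays read 5.58, 8.58, 6.90, 6.80 and 6.55 at 1 d, against 9.55, 9.86, 10.00, 9.94 and 10.13 in controls. At 2 d Akr1d1 split in the same way as Cyp8b1, with arrays 1 to 3 at 10.14, 10.02 and 9.57 and arrays 4 and 5 at 7.33 and 7.29. Cyp2c70, which makes muricholic acids in the mouse, fell by 1.71 ± 0.22 at 1 d, the peroxisomal transporter Abcd3 by 1.56 ± 0.16 and the racemase Amacr by 1.44 ± 0.16. Hsd3b7, the dehydrogenase that follows the first hydroxylation, fell by 1.28 ± 0.14 at 8 h. The peroxisomal thioesterase Acot8 was higher by 0.73 ± 0.14 at 1 d, and Cyp39a1, the hydroxylase of another oxysterol, by 0.74 ± 0.26 at 2 d.

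Among 10 regulators of these genes, 5, 7, 7 and 3 were called lower at 2 h, 8 h, 1 d and 2 d and none higher. Their medians were -0.16, -0.47, -0.45 and -0.23, and none was called later. Among all genes the shares called lower were 19.9%, 24.2%, 25.1% and 18.9%, so that 3 of 10 at 2 d is near that share. Nr5a2, the gene of LRH-1, read 7.83, 7.87, 7.38, 7.42 and 7.81 at 2 h, against 8.60, 8.34, 8.33, 8.53 and 8.30 in controls. It fell by 0.76 ± 0.14 at 2 h and by 1.07 ± 0.14 at 8 h (adjusted p = 0.000120 and 5.13e-08). Prox1, known in human cells as a corepressor of CYP7A1, fell by 1.07 ± 0.27 at 2 h. Klb, the co-receptor through which the gut hormone FGF15 represses Cyp7a1, fell by 0.97 ± 0.19 at 8 h, and Hnf4a by 0.61 ± 0.12 at 1 d. Hnf4a was at 0.30 at 2 h (adjusted p = 0.0594). Of 5 genes controlled by FXR or SHP, 1, 2, 4 and 2 were called lower at the first 4 times and none later, beside the 19.9%, 24.2%, 25.1% and 18.9% of all genes given above, so that 1 of 5 at 2 h is near the share of all genes. The bile salt export pump Abcb11, raised by FXR, fell by 1.11 ± 0.15 at 8 h and by 2.01 ± 0.15 at 1 d, and the uptake carrier Slc10a1, held down by SHP in the rat, fell by 1.87 ± 0.17 at 1 d.

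**Figure D4:**
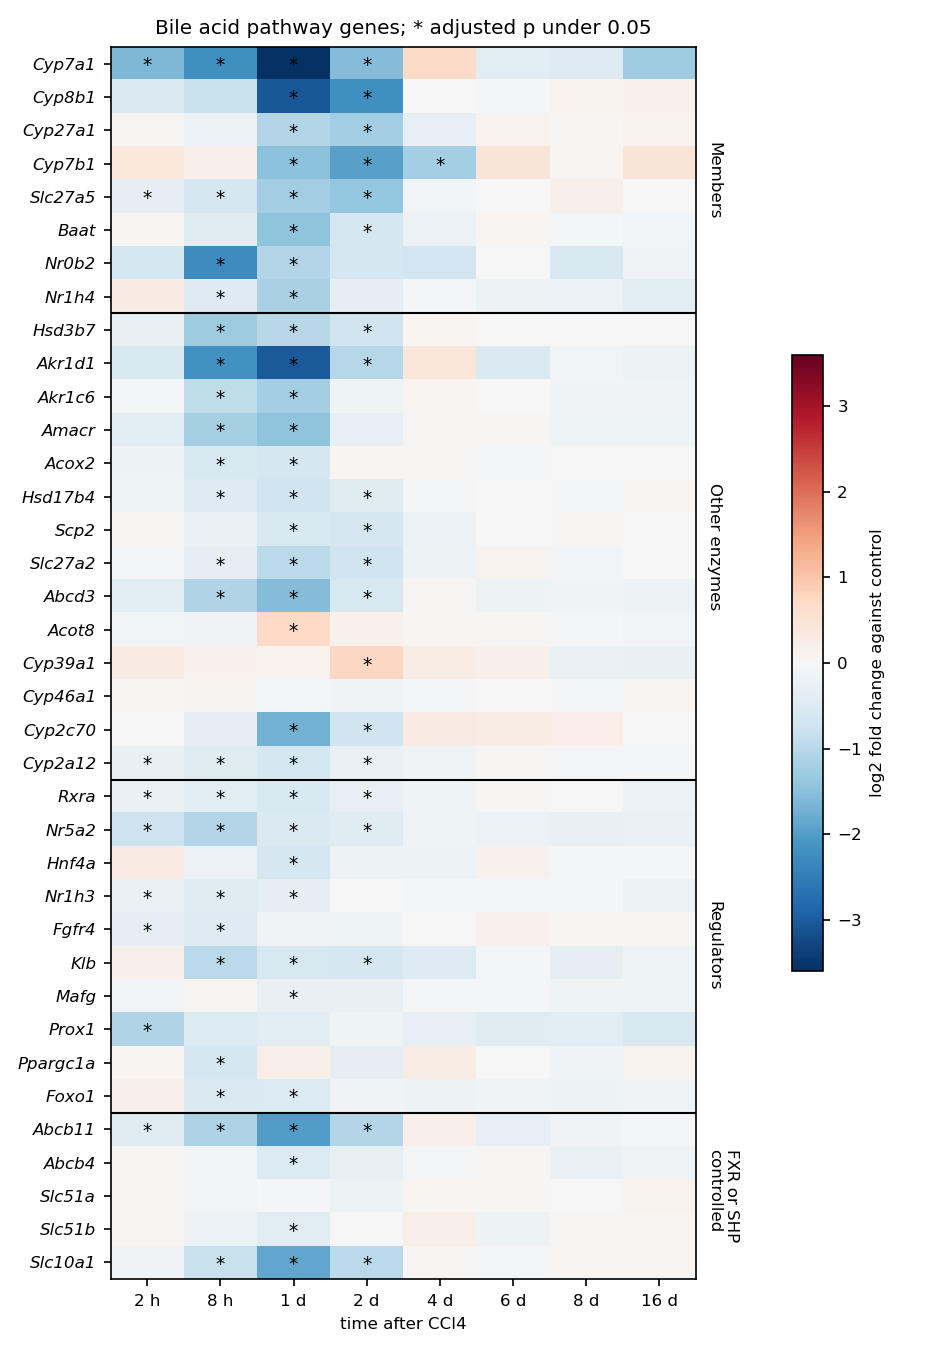
Log2 fold change over control (colour, blue lower and red higher) of the 8 genes, 14 other enzymes, 10 regulators and 5 genes controlled by FXR or SHP (rows) at 8 times after CCl4 (columns); asterisks mark an adjusted p under 0.05. Most asterisks lie between 8 h and 2 d, all but 2 of those among other enzymes are blue, and the single one after 2 d is Cyp7b1 at 4 d.

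Some genes of stress and inflammatory signalling, which is known to repress bile acid synthesis, were higher over the same times. Of 8 tested (Il6 did not pass the filter), 3 were called higher at 2 h, 4 at 8 h, 5 at 1 d, 4 at 2 d and 1 at 4 d, where 6.41%, 17.7%, 25.0%, 21.1% and 4.74% of all genes were. At 2 h Fos was higher by 5.48 ± 0.38, Jun by 4.99 ± 0.40 and the hormone gene Fgf21 by 3.74 ± 0.33. At 8 h Lcn2, a secreted acute phase protein, was higher by 4.98 ± 0.80, but 2 arrays stood apart. It read 8.06, 8.07, 12.47, 12.06 and 12.26 at 8 h, against 6.39, 4.51, 5.25, 5.19 and 6.68 in controls. Fgf15 was at 0.12 at 2 h and -0.13 at 8 h, and was called lower at 1 d by 0.19 ± 0.08. The part of these genes in the change of the bile acid genes was not tested.

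The clock output of the arrays differed within groups, which bears on Cyp7a1, a gene with a daily rhythm. Dbp, a D-box factor known to drive Cyp7a1 in the rat, read 6.58, 6.40, 6.45, 9.38 and 10.13 at 2 h and 9.60, 9.75, 10.02, 6.81, 6.60 and 7.29 at 16 d, against 8.34, 9.08, 10.59, 10.54 and 10.62 in controls. Arntl, the clock activator Bmal1, ran the other way, with 6.84, 7.41, 6.71, 5.43 and 5.92 at 2 h and 6.33, 5.99, 6.16, 7.26, 7.10 and 6.83 at 16 d, against 6.75, 6.62, 5.78, 5.76 and 5.72 in controls. At 2 h arrays 4 and 5, with high Dbp, had the higher Cyp7a1 values, and at 16 d arrays 4 to 6, with low Dbp, had the lower ones. Likewise control arrays 3 and 4, with Cyp7a1 at 10.77 and 10.49, were among the 3 controls with Dbp over 10, while the third, array 5, read 9.23. At 6 d arrays 1 to 3, with Dbp between 9.91 and 10.46, read 9.62, 10.0 and 9.30 for Cyp7a1. Arrays 4 and 5 of that group, with Dbp at 6.15 and 5.98, read 9.22 and 8.74. At 8 h and 1 d array 2 had the highest Dbp of its group, at 9.23 and 7.58, and the highest Cyp7a1, at 9.31 and 8.07. The groups at 2 d, 4 d and 8 d did not show this order of high Dbp with high Cyp7a1. At 2 d array 4, with the highest Dbp of its group at 8.76, had the lowest Cyp7a1 at 6.18. At 4 d arrays 4 and 5, with Dbp at 10.03 and 10.45, read 10.59 and 9.76 for Cyp7a1, beside 10.78, 10.25 and 10.99 in arrays 1 to 3, with Dbp between 7.25 and 8.17. At 8 d arrays 1 and 2, with Dbp at 10.31 and 10.10, read 9.03 and 9.45, beside 9.99, 8.89 and 9.32 in arrays 3 to 5, with Dbp between 5.07 and 6.12. Dbp minus Arntl averaged 1.32 ± 2.53 at 2 h, 2.32 ± 0.48 at 8 h, -0.41 ± 0.87 at 1 d and 1.63 ± 0.70 at 2 d (SD, n = 5 each). It averaged 1.73 ± 2.11 at 16 d (SD, n = 6), against 3.71 ± 1.57 in controls (SD, n = 5). With this difference as a covariate, a setting chosen after the data were seen, Cyp7a1 stood at -1.39 at 2 h, -2.06 at 8 h, -3.15 at 1 d and -1.36 at 2 d and was still called at each (adjusted p from 1.09e-05 to 0.0441). At 16 d it stood at -1.09 (adjusted p = 0.234). The calls of the other members with this covariate were those without it, except that Nr1h4 passed at 2 h (0.41, adjusted p = 0.0475). Of 10 clock genes, 7 were called lower and 2 higher at 1 d, with Dbp at -3.19 ± 0.93, and none was called from 4 d on. At 1 d 25.1% of all genes were called lower and 25.0% higher. Time of sampling and time after CCl4 cannot be told apart here.

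**Figure D5:**
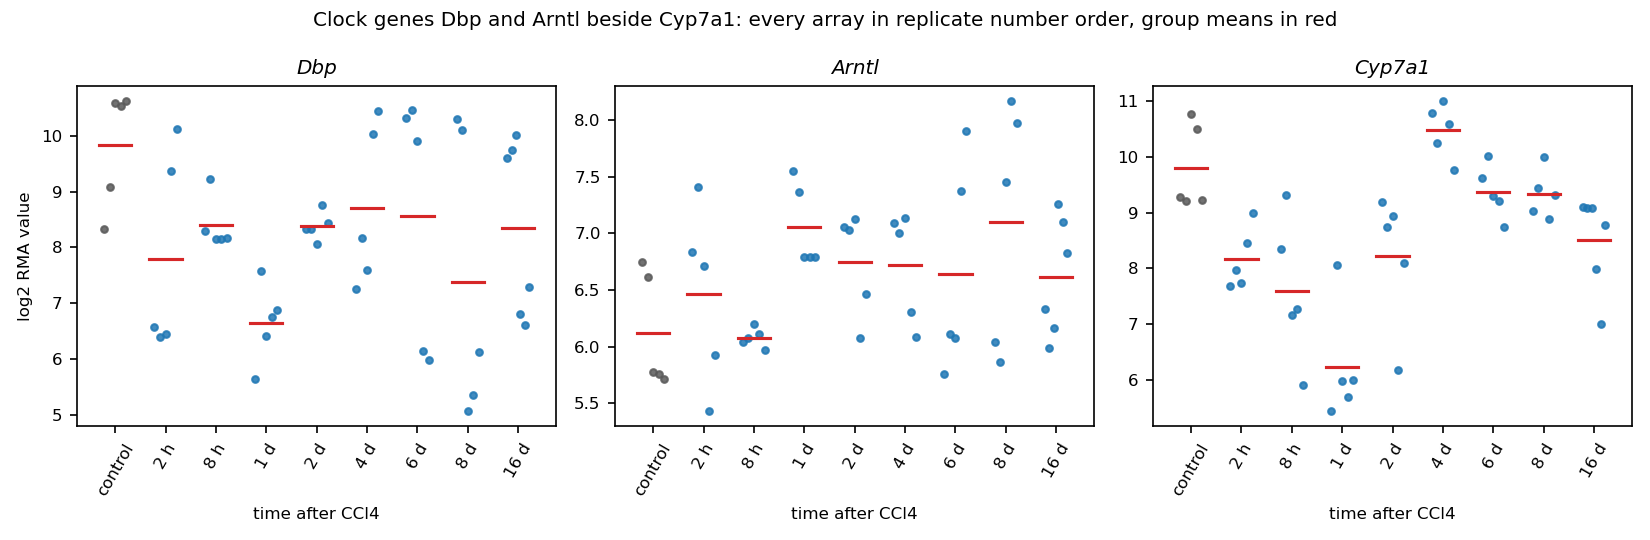
Log2 RMA value (vertical axis) of the clock genes Dbp and Arntl and of Cyp7a1 in every array by time after CCl4 and in control (horizontal axis); dots are arrays in order of their number and red lines group means. Dbp and Arntl split in opposite directions within the groups at 2 h, 6 d, 8 d and 16 d, and Cyp7a1 is lowest at 1 d.

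Markers of hepatocytes and of other liver cells differed from control over the same times. Over the first 5 times, 19.9%, 24.2%, 25.1%, 18.9% and 2.21% of all genes were called lower. The shares called higher were 6.41%, 17.7%, 25.0%, 21.1% and 4.74%. Hepatocyte markers were called lower for 2, 5, 7 and 3 of 8 genes at 2 h, 8 h, 1 d and 2 d, and 1 was called higher at 2 h. Their median was -0.45 at 1 d. Of macrophage markers, 2, 3 and 3 of 4 tested were called higher at 1 d, 2 d and 4 d, with Cd68 at 2.57 ± 0.18 at 1 d and Gpnmb at 2.71 ± 0.37 at 4 d. The log2 of the summed level of 5 macrophage genes ranged from 10.34 to 10.76 at 1 d and from 11.18 to 11.83 at 4 d, against 9.42 to 9.58 in controls. Of 4 neutrophil markers 2 had a probe set here, and both were called higher at 1 d and 2 d, with S100a8 at 3.25 ± 0.49 at 1 d. Of 5 Kupffer cell markers 2 were called lower at 2 h, all 5 at 8 h, and 4 higher at 4 d. Their log2 summed level ranged from 10.48 to 10.87 at 2 h, from 10.47 to 10.80 at 8 h and from 12.15 to 12.47 at 4 d, against 11.07 to 11.31 in controls. Of 5 stellate cell markers 3 were called higher at 2 d and 2 at 4 d, and of 4 endothelial markers 3 were called lower at 2 h and at 8 h and 2 higher at 4 d. Among 3 cholangiocyte markers tested 1 was called higher and 1 lower at 1 d. The cholangiocyte marker Krt19 was at 0.02 at 1 d and 0.06 at 2 d (adjusted p = 0.900 and 0.671). Whether these cells had a part in the levels of the bile acid genes was not tested.

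The genes with the profiles most like each member over the 46 arrays are given as a description, since all arrays share the same time course. They were Hibch (r = 0.900), Suclg1 (0.875) and Atp5a1 (0.870) for Cyp7a1, and Dmgdh (0.949), Ephx2 (0.925) and Hpd (0.918) for Cyp8b1. For Cyp27a1 they were Tm7sf2 (0.945), Glul (0.911) and Cyp2d9 (0.911), and for Cyp7b1 Gper1 (0.886), Mup5 (0.875) and Cfap298 (0.853). Slc27a5 was followed by Cyp2f2 (0.961), C8g (0.958) and Pigr (0.948), and Baat by Urah (0.899), Mtarc1 (0.893) and Bbox1 (0.890). Nr0b2 had the lowest such values, with Alkbh7 (0.827), Dcaf11 (0.797) and Txndc15 (0.796), and Nr1h4 was followed by Nr1i2 (0.860), Gys2 (0.842) and Pank1 (0.838).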

How the data were processed

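Biotin-labelled cRNA was hybridised to 46 one-colour Affymetrix arrays, as the labels' protocols state. The authors deposited log2 expression values. Per the submitters' processing notes these come from RMA in oligo 1.52.0. RMA summarises probes to probe sets and by default corrects background and quantile-normalizes, which removes shifts common to most genes. No read depth exists for arrays, and their number limits the precision. All columns were used (0 left out). Of 45101 probe sets, 34945 name 1 gene in the platform annotation, 932 several and 9160 none, and 64 are controls. Symbols were updated through Entrez IDs (34741 matched). A gene was tested when at least 5 arrays had its probe set above 5.56, the overall median, and 4953 genes were not.

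All arrays entered 1 limma 3.58.1 fit in R 4.3.3 (lmFit, eBayes, 37 residual degrees of freedom). Adjusted p-values are limma's with Benjamini-Hochberg adjustment over all genes tested within a comparison, called under 0.05, and ± after a fold change is its standard error. Pairs of genes were compared by exact permutation tests, and associations by 100000 permutations within groups, with scipy 1.17.1 in Python 3.11.15. The fit was tested on simulated data.

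The members, lists and alternatives were chosen with earlier results of these data known. Named genes are the members, up to 4 called genes with the largest change from each list at a time, and the 3 most similar profiles of each member. Arntl, Fgf15, Hnf4a at 2 h, and single cell markers were named after their values were seen. Alternatives changed the scaling, the filter, the probe sets, the arrays fitted, the variance model, weights and a replicate block, or dropped single arrays. Covariates, 6 d arrays in place of controls, the loss of 2 arrays at 1 d and second probe sets for the pairs were added after seeing the data.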

Additional observations from a re-analysis of the deposited data

Results flagged for a closer look

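In 4 of 72 groups of arrays over the 8 genes, 1 array lay far from the rest of its group by Dixon's criterion, where chance gives about 1 in 20. These were Cyp7a1 in 1 d array 2 at 8.07, next to 5.99, Cyp27a1 in 8 h array 4 at 11.18, Cyp27a1 in 4 d array 1 at 10.60 and Cyp27a1 in 8 d array 1 at 11.39.

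In 6 steps a gene passed the test between neighbouring times whose log2 fold changes over control have opposite signs. Cyp7a1 was higher by 2.24 at 4 d than at 2 d, Cyp7b1 by 1.69 at 6 d than at 4 d, and Cyp27a1 by 0.42 at 6 d than at 4 d. For Cyp27a1 the step at 8 h relative to 2 h was -0.26, for Nr1h4 the same step was -0.75, and for Cyp7b1 the step at 1 d relative to 8 h was -1.64. In each of these steps at least one of both times did not itself pass against control.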

How the results depend on the processing

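No fold change of a called gene reversed under any alternative. Of 1568 fold changes recomputed, 1511 kept their side of the threshold, 34 lost the call and 23 gained one. The calls at 2 d ranged from 4 to 7 without 1 array. All 8 genes were called at 1 d without any 1 array, without both 1 d arrays 1 and 2, with the replicate block and relative to hepatocyte markers, and 7 with the Gapdh covariate. Of 2 called at 2 h, 1 was called relative to hepatocyte markers and with second probe sets, 0 with the Gapdh covariate, and 1 to 2 without 1 array. At 8 h array weights gave 7 called instead of 4. At 4 d second probe sets, array weights and 6 d arrays in place of controls gave 2 instead of 1 (the second probe set of Cyp7a1 being higher), and leaving out 1 array 0 to 2. The step from 2 h to 8 h had 5 called instead of 3 with only both groups in the fit and with array weights. The step from 1 d to 2 d had 5 instead of 3 with cyclic loess and array weights. The share of all genes called at these steps was not counted under those settings. The replicate block left the counts at 2, 4, 8, 6, 1, 0, 0 and 0 over the 8 times and changed no call of a member. The array numbers were not taken to pair samples in the main fit. Over 40 pairs of a CCl4 array with the control of its number, deviations from group means correlated between -0.15 and 0.256, with 8 over 0.1. In 8 of 40 the own number correlated best. CCl4 groups were not compared with each other in this way.

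All genes called at 2 h were 3487, against 1698 relative to hepatocyte markers, which gave 10665 against 6623 at 1 d and 8271 against 5307 at 2 d. The Gapdh covariate gave 2326 at 2 h and 5368 at 1 d, and second probe sets gave 2459 of 10761 tested at 2 h. At 4 d 920 were called, against 1622 with both groups alone, 2075 with array weights and 1431 against 6 d arrays. At 6 d 3 were called, against 0 to 14, and at 8 d 19, against 1 to 90. At 16 d 200 were called, against 16 relative to hepatocyte markers, 25 against 6 d arrays, 50 with the replicate block, 85 with the mean of probe sets, 90 with cyclic loess, 110 with second probe sets, 127 with the Dbp minus Arntl covariate and 1010 with array weights. Causes were not tested.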
